A study of Mus musculus with 6 samples.

Results

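Amino acid transporters of the solute carrier (SLC) families were followed as 1 group of genes in bulk RNA-seq of the submandibular gland (SMG) of female mice. Members were taken by symbol, by a rule set with earlier results of these data known. They were the rows of the filtered count table named Slc1a, Slc3a, Slc7a, Slc36a, Slc38a or Slc43a followed by digits only, together with Slc6a6, Slc6a9, Slc6a14, Slc16a10 and Slc25a22. This gave 37 genes out of 17527 rows. Slc7a6os carries a suffix after the digits, is not a transporter, and was left out. Another 10 symbols of the same families occurred only in the unfiltered table of 43280 rows, with at most 5 counts in any library. Of these, Slc7a9, the light chain that partners Slc3a1, and also Slc36a3 and Slc7a15 had 0 counts in all 6 libraries, where a count of 0 allows up to 3 counts per library.

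The comparison was between wild-type (WT) mice and double knockout (DKO) mice for Hs3st3a1 and Hs3st3b1, both of which encode enzymes that place a 3-O-sulfate on heparan sulfate. Per the study, Hs3st3a1 carried a deletion in exon 1 made with zinc finger nucleases in embryos heterozygous for an Hs3st3b1 allele that holds a LacZ cassette, and the controls were WT littermates. Both alleles are constitutive, so every cell of the animal carried them and no Cre or transgene promoter restricted the change. The glands were from adults, the labels give no treatment for either group, and neither the exact age nor how many founders the DKO line descended from was given in the sources used here for these 6 animals. There were 3 libraries per group, labelled 1, 4 and 5 in each. Nothing in the labels says more of how the 3 animals of a group were related, so p-values measure the spread between these libraries.

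Total counts per library ranged from 23674258 to 29611975. The 10 most abundant genes took 57.9% to 61.9% of them in the WT-labelled and 62.6% to 66.2% in the DKO-labelled libraries, without overlap. The counts of the 2 targeted genes did not separate the labels. Hs3st3b1 had 173, 203 and 261 counts in the WT-labelled libraries and 255, 120 and 189 in the DKO-labelled libraries (log2 fold change -0.04 ± 0.24 SE, adjusted p = 0.976 by DESeq2). Hs3st3a1 had 15, 11 and 15 counts against 11, 8 and 13 (log2 fold change -0.22 ± 0.61 SE, adjusted p = 0.947 by DESeq2). Of the exonic bases of Hs3st3a1, 32.9% lie under F930015N05Rik on the opposite strand, whose reads cannot be told apart in these unstranded libraries. Counts over a whole gene can include sequence outside the edited part. Per the study, the founders' deletions in Hs3st3a1 were short, so counts over that gene cannot check the labels. How much of Hs3st3b1 its LacZ allele removes is not given in the sources used here, and its counts do not bear the labels out. Every direction below is that of libraries labelled DKO relative to libraries labelled WT. To check the tissue label, all 7 acinar markers (Aqp5, Agt, Lpo, Bhlha15, Spt1, Slc12a2 and Smgc) were looked up and all were counted. Their summed level was 8665100 to 10221900 normalized counts in the WT-labelled and 10070600 to 12395900 in the DKO-labelled libraries. Nearly all of this was Spt1, at 8298700 to 10113800 and 9948670 to 12174200, so the sum does not describe the other markers. Of the 7, 5 had a log2 fold change above 0 and 2 below it, Smgc (-1.54 ± 1.02 SE) and Slc12a2 (-0.08 ± 0.10 SE).

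Protein synthesis draws on amino acids from outside the cell, and a gland that secretes protein depends on carriers for them in the plasma membrane and on intracellular membranes. SLC1 carriers use the sodium gradient to bring in glutamate or to exchange small neutral amino acids. SLC7 light chains do the transport in heteromeric carriers, but reach the membrane only with an SLC3 heavy chain linked to them, whereas the cationic members of SLC7 carry arginine and lysine without a heavy chain. SLC38 carriers bring in glutamine and other neutral amino acids with sodium, SLC36 carriers run on protons, and SLC43 carriers are facilitative. When amino acids are short or the endoplasmic reticulum is under stress, translation of the transcription factor ATF4 rises, and many carrier genes are among its known targets.

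Of the 37 members, 8 were higher and 1 was lower in the DKO-labelled libraries (two-sided DESeq2 Wald test, adjusted p below 0.05 over 18606 rows). Over all rows tested, 1.02% were higher and 1.88% lower by the same rule, 2.9% in all, against 24.3% of members. Because members were chosen with earlier results known, this contrast is a description and was not tested. The 1 lower member is a share of 37 near the background for that direction. The higher members were Slc1a4, Slc1a5 and Slc1a3 of SLC1, the heavy chain Slc3a2, the light chain Slc7a5, the cationic carrier Slc7a1, the glutamine carrier Slc38a1 and the glycine carrier Slc6a9. The lower member was the cationic carrier Slc7a2. Of the 9 called members 4 (Slc1a3, Slc1a5, Slc38a1 and Slc7a1) changed less than 2-fold. No called gene came from SLC36 or SLC43. The median log2 fold change of members was 0.21 and that of all rows was 0.00, with 24 members above 0 and 13 below it. Normalized counts (counts divided by a size factor per library) of the groups did not overlap for 13 members higher and 3 members lower, against 9.85% and 10.5% of all rows. The 28 members with a mean of at least 50 normalized counts held all 8 higher calls and the lower one, against 1.58% and 2.18% (3.77% in all) of rows at that level. Among them, 12 lay wholly higher and 2 wholly lower, against 12.8% and 10.4% of rows at that level.

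**Figure D1:**
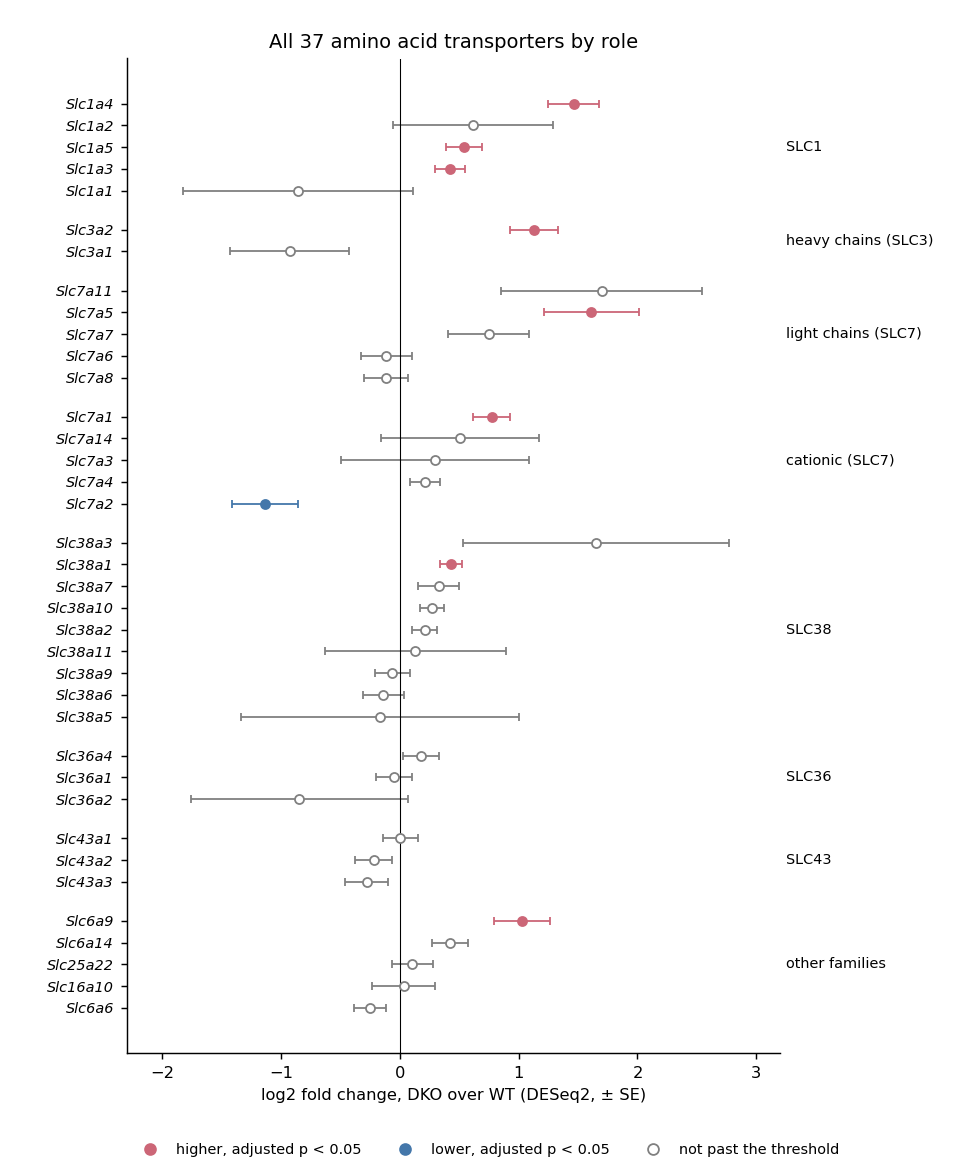
Log2 fold change (x axis, libraries labelled DKO over libraries labelled WT) with its SE from DESeq2 for each of the 37 amino acid transporters, grouped by role. Filled red points mark the 8 higher genes, the filled blue point marks Slc7a2 and open points did not pass an adjusted p of 0.05.

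How the calls stood depended on the tool and on the scaling. By edgeR's quasi-likelihood test 0 members passed an adjusted p of 0.05, as did 0.0537% of all rows, and 16 members had an unadjusted p below 0.05, against 15% of rows. By limma-voom 0 members passed, against 0.0376% of rows, and 15 members had an unadjusted p below 0.05, against 14% of rows. With total counts in place of median-of-ratios size factors, all rows shifted down by a median of 0.23 on the log2 scale, 5 members were higher and 2 lower, and the members' median was -0.03. Slc1a5, Slc38a1 and Slc1a3 lost their calls there, at log2 fold changes of 0.30, 0.19 and 0.19, and the taurine carrier Slc6a6 became a lower call at -0.48. Slc7a5 (1.36), Slc1a4 (1.21), Slc3a2 (0.88), Slc6a9 (0.78), Slc7a1 (0.53) and Slc7a2 (-1.38) stayed past the threshold.

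Markers of other cell types moved between the same libraries, where 1.02% of all rows were higher and 1.88% lower by DESeq2. All 6 granular duct markers were lower (summed level 116363 to 134298 normalized counts in the WT-labelled and 60835 to 82987 in the DKO-labelled libraries), as were all 6 myoepithelial markers (9924 to 10788 against 5370 to 7083). Of 7 acinar markers 2 were higher, of 8 macrophage and of 8 lymphoid and plasma cell markers 4 each were lower, and of 6 red blood cell markers 4 were higher (863 to 1775 against 2839 to 3174). Of 5 fibroblast markers 2 were lower, of 6 other duct markers 1 was lower, and 0 of 6 endothelial and 0 of 5 glial and nerve markers passed the DESeq2 test, where 2 and 0 of them had an unadjusted p below 0.05, as did 12.2% of all rows. No marker on these lists was at 0 in all libraries. In whole glands, fewer cells of a type and less RNA per cell cannot be told apart, and what part the cell mixture had in the transporter values was not tested.

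Promoter windows were read from RefSeq (GRCm38.p6), which held an entry for 27 of the 37 members in 38 windows of 250 bases before to 50 bases after a start site. Slc1a5, Slc38a1 and Slc7a5 had none. The letters TGATGNAA, the core of the composite element read by ATF4 with a C/EBP partner, were searched on both strands. They were found in 4 of the 38 windows (10.5%) and in 3.97% of all 32851 windows. The windows of Slc7a7 among these overlap and hold the same TGATGCAA. By gene the share was 3 of 27 (11.1%), against 4.51% of all 27025 genes. The genes were Slc1a4, the only one of the 5 higher members with an entry to hold it, Slc7a11 and Slc7a7. The stretch from 150 bases before to 30 bases after the start site is given for each. It is on the strand of the gene, with the matched letters in capitals. Only these 3 genes are printed, because no other member with an entry held a match.
Slc1a4, chr11:20332684-20332863, minus strand: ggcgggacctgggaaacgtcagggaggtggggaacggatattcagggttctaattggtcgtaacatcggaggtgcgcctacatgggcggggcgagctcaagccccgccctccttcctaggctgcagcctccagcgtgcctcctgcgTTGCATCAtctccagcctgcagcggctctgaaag
Slc7a11, chr3:50443584-50443763, minus strand: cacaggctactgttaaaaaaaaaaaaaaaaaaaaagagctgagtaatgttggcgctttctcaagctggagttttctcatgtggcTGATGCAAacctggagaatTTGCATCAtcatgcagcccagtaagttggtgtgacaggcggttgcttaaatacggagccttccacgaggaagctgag
Slc7a7, chr14:54417915-54418094, minus strand: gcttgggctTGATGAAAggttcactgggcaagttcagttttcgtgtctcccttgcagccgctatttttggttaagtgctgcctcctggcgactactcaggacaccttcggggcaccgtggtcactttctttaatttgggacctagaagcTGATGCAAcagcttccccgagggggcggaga
The match of Slc1a4 began 4 bases before the start site and lay on the opposite strand. Slc7a11 held 2 matches in opposite orientation, with first bases 66 and 47 bases before the start, and Slc7a7 held 1 at 141 and 1 at 1 base before it. Only Slc1a4 of the 3 passed the DESeq2 test. The E-box CACGTG occurred in 5 member windows (13.2%, against 7.15% of all) and the cyclic AMP response element TGACGTCA in 1 (2.63% against 1.79%), none of them in a window of a higher member. A match describes letters only, and the absence of one says nothing of any factor.

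Among the 5 SLC1 genes, 3 were higher and 0 lower, against 1.02% and 1.88% of all rows. Slc1a4 (chr11:20302180-20332713, minus strand), an exchanger of alanine, serine and cysteine, had 202, 214 and 205 normalized counts in the WT-labelled libraries and 373, 679 and 661 in the DKO-labelled libraries. All 3 of the latter were above all WT-labelled values, with DKO 1 the lowest of them. The mean rose from 207 ± 6.40 to 571 ± 172 (SD, n = 3), a log2 fold change of 1.46 ± 0.21 SE (adjusted p = 7.35e-09 by DESeq2). The gene passed in each of the 6 fits that left out 1 library (log2 fold change 1.32 to 1.70), and its edgeR adjusted p of 0.0707 was the lowest of any member.

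Slc1a5 (chr7:16781340-16798274, plus strand), which exchanges glutamine and other neutral amino acids, had 2516, 2902 and 2030 normalized counts against 2954, 4024 and 3855. The groups only just failed to overlap, the lowest DKO-labelled value being 1.02 times the highest WT-labelled value. The log2 fold change was 0.54 ± 0.15 SE (adjusted p = 0.0190 by DESeq2). Slc1a3 (chr15:8634124-8710764, minus strand), a glutamate and aspartate carrier, had 427, 467 and 423 against 637, 552 and 571, with DKO 1 the highest here. Its log2 fold change was 0.42 ± 0.13 SE (adjusted p = 0.0332 by DESeq2). With 1 library left out, Slc1a5 passed only without WT 4 or DKO 1 and Slc1a3 only without WT 4 or DKO 4, and without WT 5 their DESeq2 adjusted p values were 0.291 and 0.268. Their log2 fold changes stayed at 0.42 to 0.67 and 0.36 to 0.47 over the 6 such fits. The other glutamate carriers, Slc1a2 (0.62 ± 0.68 SE) and Slc1a1 (-0.86 ± 0.97 SE, mean 6.29 normalized counts in the WT-labelled libraries and no adjusted p), did not pass, and 31.9% of the exonic bases of Slc1a1 lie under a gene on the opposite strand. Per kilobase of exon, Slc1a5 stood at 11.3 ± 1.76 times the level of Slc1a4 in the WT-labelled and at 6.17 ± 1.11 times in the DKO-labelled libraries (SD, n = 3).

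**Figure D2:**
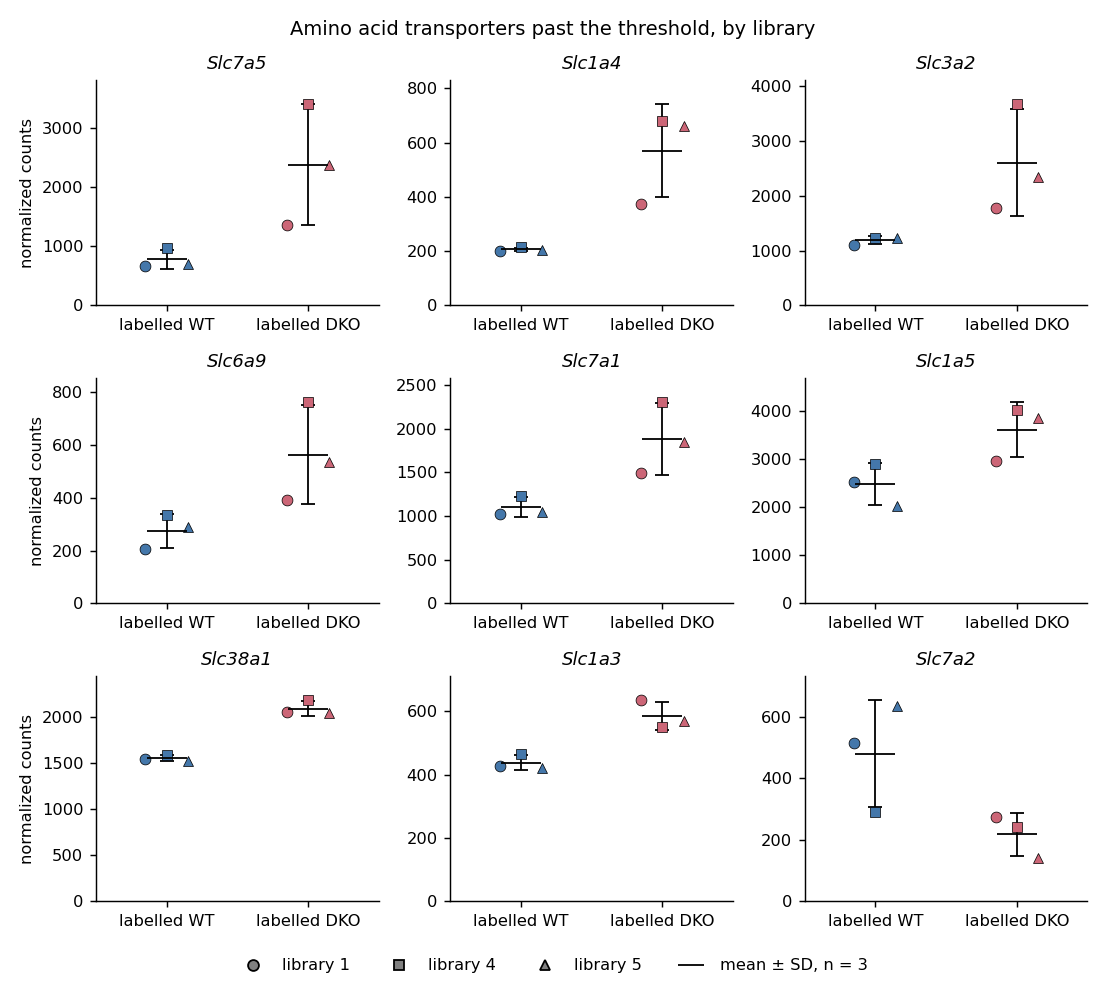
Normalized counts (y axis, from 0) of the 9 amino acid transporters that passed the DESeq2 test in each of the 6 libraries, with the mean and SD of 3 libraries per label. In 7 of the 8 higher genes DKO 4 is the highest library, and for Slc7a2 the 3 DKO-labelled libraries lie below the lowest WT-labelled one.

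The heavy chain Slc3a2 (chr19:8706882-8723369, minus strand), also known as CD98, had 1101, 1221 and 1232 normalized counts in the WT-labelled libraries and 1777, 3667 and 2344 in the DKO-labelled libraries. The WT-labelled values lay close together, while the DKO-labelled ones spread 2.06-fold from DKO 1 to DKO 4. The mean rose 2.19-fold (95% interval 1.67 to 2.88; log2 fold change 1.13 ± 0.20 SE, adjusted p = 8.78e-06 by DESeq2). Without WT 1, WT 4, WT 5 or DKO 5 the adjusted p was 0.247, 0.0749, 0.178 and 0.0907, while the log2 fold change stayed between 0.80 and 1.34 over the 6 such fits. The other heavy chain, Slc3a1, was rare at 28.7, 22.5 and 24.2 against 15.2, 9.41 and 15.0 normalized counts. Its groups did not overlap, but it did not pass (log2 fold change -0.93 ± 0.50 SE, adjusted p = 0.402 by DESeq2), and 26.5% of its exonic bases lie under Prepl on the opposite strand, whose reads cannot be told apart in these unstranded libraries.

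Slc7a5 (chr8:121881150-121907694, minus strand), the light chain that carries leucine and other large neutral amino acids, had 673, 966 and 702 normalized counts against 1357, 3416 and 2382. It showed the steepest rise of the 9 called members, 3.06-fold (95% interval 1.78 to 5.25; log2 fold change 1.61 ± 0.40 SE, adjusted p = 0.00479 by DESeq2). DKO 4 held 2.52 times as much as DKO 1. The call held without WT 4 or DKO 1 and was lost without WT 1 (adjusted p = 0.134), WT 5 (0.124), DKO 5 (0.0972) or DKO 4 (0.0511), with log2 fold changes from 1.26 to 1.89.

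The other 4 light chains did not pass. Slc7a8, a second carrier of neutral amino acids, and Slc7a6, which exchanges cationic for neutral amino acids, had log2 fold changes of -0.12 ± 0.18 SE and -0.12 ± 0.21 SE, with 95% intervals of the fold of 0.72 to 1.19 and 0.69 to 1.23. Slc7a7, the relative of Slc7a6 with 2 motif matches above, had 36.6, 46.0 and 48.4 normalized counts against 47.4, 99.3 and 73.8, where DKO 1 fell within the WT-labelled range (log2 fold change 0.75 ± 0.34 SE, adjusted p = 0.268 by DESeq2). Slc7a11, the cystine and glutamate exchanger also known as xCT, had 10.9, 0.978 and 5.37 against 4.74, 28.2 and 23.1. DKO 4 and DKO 5 were above the rest and DKO 1 was not, and the gene did not pass (log2 fold change 1.70 ± 0.85 SE, adjusted p = 0.348 by DESeq2).

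Per kilobase of exon, Slc3a2 and its light chains stood at similar levels. Slc3a2 was at 336 ± 20.5 normalized counts per kilobase and the sum of the 5 light chains at 310 ± 51.8 in the WT-labelled libraries, and they were at 736 ± 275 and 746 ± 280 in the DKO-labelled libraries (SD, n = 3). The ratio of heavy to light chains was 1.10 ± 0.136 and 0.996 ± 0.106, ranges that overlapped between the labels. The make-up of the light chains shifted: Slc7a5 was 67.9%, 70.9% and 64.4% of their sum in the WT-labelled and 79.2%, 90.2% and 85.3% in the DKO-labelled libraries. Slc7a8 went from 18.1% ± 0.339 to 7.82% ± 3.60 and Slc7a6 from 9.77% ± 2.30 to 4.15% ± 1.89, in both cases without overlap. Slc7a7 also took a lower share without overlap, 4.29% ± 0.609 against 2.99% ± 0.0902, although its own log2 fold change was 0.75. These are shares of a sum that Slc7a5 dominates, and the log2 fold changes of Slc7a8 and Slc7a6 themselves were -0.12 each. The shares are given as a description and were not tested, since an exact permutation test of 3 against 3 cannot give a two-sided p below 0.1.

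**Figure D3:**
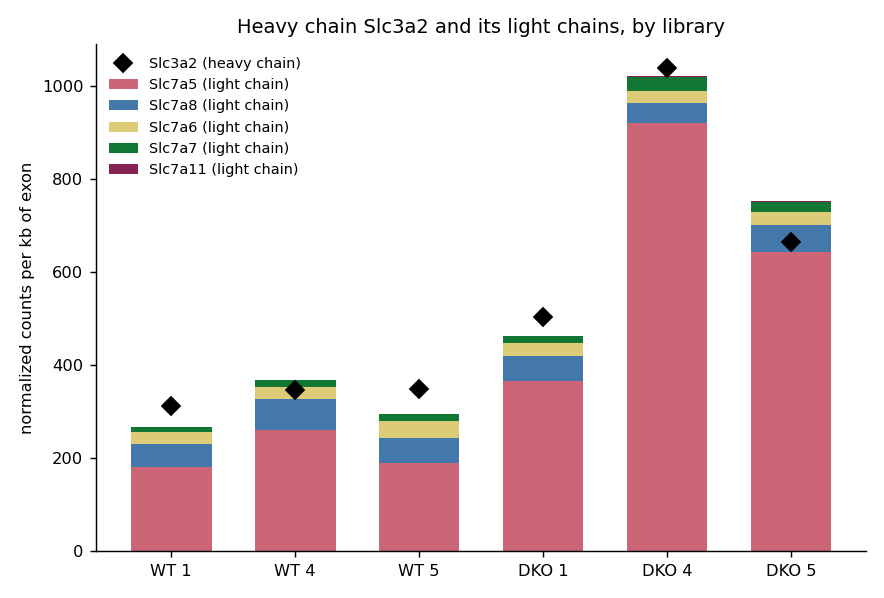
Normalized counts per kilobase of exon (y axis) of the 5 light chains, stacked, and of their heavy chain Slc3a2 (black diamonds) in each library. Slc7a5 fills 64.4% to 70.9% of the stack in the WT-labelled and 79.2% to 90.2% in the DKO-labelled libraries, and the diamond lies at 0.881 to 1.19 times the height of the stack.

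The 2 main cationic carriers went opposite ways. Slc7a1 (chr5:148327410-148399904, minus strand), the widely used arginine and lysine carrier, had 1019, 1233 and 1051 normalized counts against 1490, 2308 and 1853, all 3 DKO-labelled libraries being above the others. Its log2 fold change was 0.77 ± 0.16 SE (adjusted p = 0.000184 by DESeq2), and it passed in all 6 fits without a library (0.60 to 0.92). Slc7a2 (chr8:40862396-40922308, plus strand), a related carrier of the same amino acids known from liver and activated macrophages, had 516, 290 and 633 against 273, 240 and 140. WT 4 was much nearer to the DKO-labelled libraries than WT 1 and WT 5 were. The mean fell to 0.455 of the WT-labelled mean (95% interval 0.312 to 0.662; log2 fold change -1.14 ± 0.28 SE, adjusted p = 0.00414 by DESeq2). This call held only without WT 4 or DKO 1, and without WT 1 the adjusted p was 0.569 at a log2 fold change that stayed within -1.40 to -0.88 over the 6 fits. Of 8 macrophage markers 4 were lower in the same libraries (summed level 1890 to 3138 against 1327 to 1857 normalized counts). All 6 granular duct and all 6 myoepithelial markers were lower too, as were 4 of 8 lymphoid and plasma cell markers. Of 5 fibroblast markers 2 were lower, and of 6 other duct markers 1. Higher were 2 of 7 acinar and 4 of 6 red blood cell markers. The part of any of these cell types in the Slc7a2 values was not tested. Per kilobase, Slc7a1 was 1.57, 3.37 and 1.31 times Slc7a2 in the WT-labelled and 4.32, 7.61 and 10.5 times in the DKO-labelled libraries. Slc7a4, an SLC7 member of unsettled transport function, did not pass (0.21 ± 0.13 SE), nor did the scarce Slc7a3 and Slc7a14.

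Of the 9 SLC38 genes, 1 was higher and 0 lower, against 1.02% and 1.88% of all rows. Slc38a1 (chr15:96571418-96642913, minus strand), a sodium-coupled glutamine carrier, had 1542, 1583 and 1524 normalized counts against 2045, 2181 and 2035. Libraries of one label lay closer together than for any other called member, the DKO-labelled ones within 1.07-fold of each other, and the lowest of them was 1.29 times the highest WT-labelled library. Its log2 fold change was small at 0.43 ± 0.09 SE (adjusted p = 0.000369 by DESeq2) and lay between 0.40 and 0.45 whichever library was left out, past the threshold each time. Slc38a2, the family member known for its induction when amino acids are withdrawn, had 2955, 3313 and 3178 against 3222, 4042 and 3641 and did not pass (0.21 ± 0.11 SE, adjusted p = 0.389 by DESeq2). Slc38a10, an intracellular member with a level per kilobase next to that of Slc3a2 over all 6 libraries, had 3130, 3353 and 2914 against 3526, 3774 and 4023 without overlap, and did not pass either (0.27 ± 0.10 SE, adjusted p = 0.110 by DESeq2). With total counts as size factors these 2 genes stood at -0.03 and 0.03. The lysosomal members Slc38a7 and Slc38a9, the latter an arginine sensor for mTORC1, had log2 fold changes of 0.33 ± 0.18 SE and -0.06 ± 0.15 SE, and Slc38a3, Slc38a5 and Slc38a11 had means under 10 normalized counts.

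Among the single members of other families, Slc6a9 (chr4:117834506-117875198, plus strand), the glycine carrier GlyT1, had 206, 333 and 288 normalized counts against 392, 762 and 535. Each DKO-labelled library was above each WT-labelled one, and the log2 fold change was 1.03 ± 0.24 SE (adjusted p = 0.00179 by DESeq2). The call was lost without WT 1 (0.0818) or DKO 4 (0.0974). Of the exonic bases of Slc6a9, 30.3% lie under B4galt2, Ccdc24 or Gm17114 on the opposite strand. Slc6a14, a broad carrier of neutral and cationic amino acids, had 618, 772 and 663 against 823, 1114 and 819, without overlap, and missed the threshold (0.42 ± 0.15 SE, adjusted p = 0.101 by DESeq2). The taurine carrier Slc6a6 (-0.25 ± 0.13 SE), the aromatic amino acid carrier Slc16a10 (0.03 ± 0.26 SE) and the mitochondrial glutamate carrier Slc25a22 (0.10 ± 0.17 SE) did not pass.

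No member of SLC36 or SLC43 passed the DESeq2 test, and 0 of these 6 genes had an unadjusted p below 0.05 by edgeR or limma-voom. With 2.9% of all rows called and 15% and 14% at such an unadjusted p, 0 of 6 is near the background. The proton-coupled carriers Slc36a1 and Slc36a4 had log2 fold changes of -0.05 ± 0.15 SE and 0.18 ± 0.15 SE. Slc43a1 and Slc43a2, which carry large neutral amino acids without an ion gradient, had 0.00 ± 0.15 SE and -0.22 ± 0.16 SE. The 95% interval of the fold of Slc43a1 was 0.82 to 1.23, against 1.78 to 5.25 for Slc7a5, a heteromeric carrier of overlapping substrates. Slc43a3, which is known as a carrier of nucleobases rather than of amino acids, lay lower without overlap (234, 226 and 232 against 210, 206 and 153 normalized counts) and did not pass (-0.28 ± 0.18 SE, adjusted p = 0.552 by DESeq2).

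Per kilobase of exon the 6 most abundant members over all libraries were Slc1a5 (595 ± 105 normalized counts per kilobase in the WT-labelled and 865 ± 138 in the DKO-labelled libraries), Slc38a10 (488 ± 34.2 and 588 ± 38.7), Slc3a2, Slc7a5 (210 ± 43.6 and 643 ± 278), Slc38a2 (356 ± 20.5 and 411 ± 46.4) and Slc6a14 (199 ± 23.0 and 267 ± 49.4; SD, n = 3). Slc1a5 was the highest by mean in both groups. Summed over the 8 higher members, normalized counts went from 8019 ± 787 to 14283 ± 3283 (1.78-fold), and over the other 29 members from 12969 ± 628 to 14011 ± 271 (1.08-fold). The 8 were picked as higher in these same libraries, so the larger rise of their sum follows from that choice and is a description only. As a share of all counts, the 37 members took 0.0853%, 0.0851% and 0.0839% in the WT-labelled and 0.0922%, 0.103% and 0.0951% in the DKO-labelled libraries.

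The size of the rise differed among the DKO-labelled libraries. Relative to the mean of the WT-labelled libraries, the median of the 8 higher members was 1.44 in DKO 1, 2.43 in DKO 4 and 1.81 in DKO 5, and 0.951, 1.09 and 0.974 in WT 1, WT 4 and WT 5. DKO 4 was the highest DKO-labelled library for 7 of the 8 genes and DKO 1 the lowest for 6. Among all 189 rows called higher, DKO 4 was likewise the highest in 63% and DKO 1 the lowest in 75.1%. Slc1a4, Slc7a1 and Slc38a1 passed whichever library was left out. Of the 135 refits of the 9 called members under other settings, 0 changed direction. The groups of these 9 genes did not overlap, which nearly fixes that outcome, so it is no separate evidence.

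**Figure D4:**
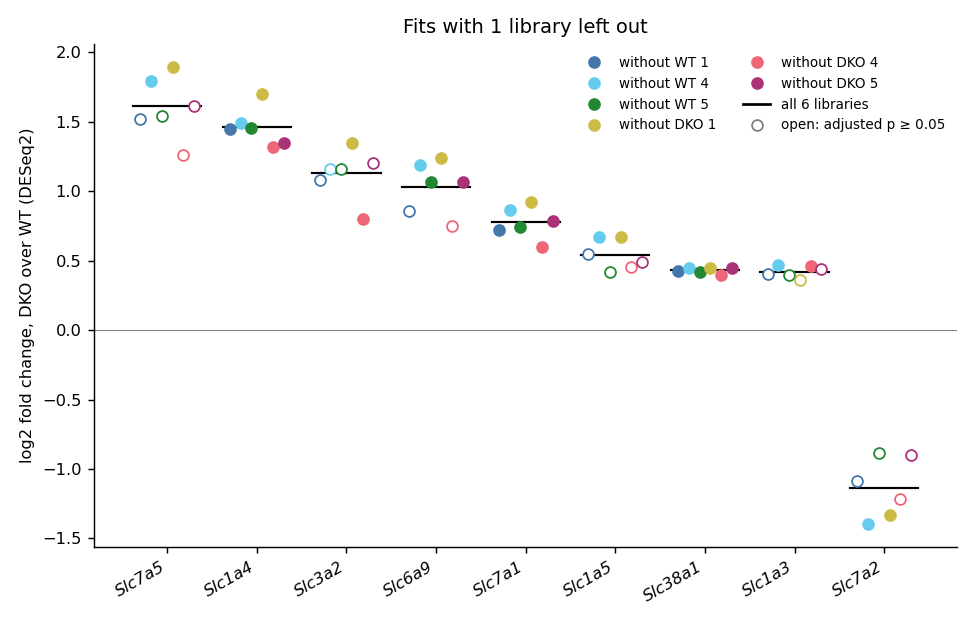
Log2 fold change (y axis, libraries labelled DKO over libraries labelled WT) of the 9 called transporters in fits with 1 library left out, coloured by the library left out, with a black line for all 6 libraries. Slc1a4, Slc7a1 and Slc38a1 keep filled points throughout. No point crosses 0, an outcome nearly fixed by groups that do not overlap.

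A list of 18 genes of the amino acid response was set beside the transporters. It holds regulators, among them Atf4 and the uncharged tRNA sensor Eif2ak4, and genes known to respond to ATF4. Of these, 7 were higher and 0 lower (38.9%, against the same 2.9% of all rows), with a median log2 fold change of 0.75. By edgeR and limma-voom 0 of the 18 passed an adjusted p of 0.05, and 13 and 12 had an unadjusted p below it. The list was written with the study's own changed genes known, so it is no independent evidence of a direction. The higher genes included Chac1, which degrades glutathione (3.06 ± 0.94 SE), the serine synthesis enzyme Psat1 (2.37 ± 0.68 SE), the mitochondrial folate enzyme Mthfd2 (2.36 ± 0.60 SE), the pseudokinase Trib3 (1.77 ± 0.44 SE) and the leucine sensor Sesn2 (1.21 ± 0.25 SE). Single libraries weighed on the 3 steepest of these. Chac1 had 99.6, 281 and 986 normalized counts in DKO 1, DKO 4 and DKO 5, and its log2 fold change was 1.80 without DKO 5. Psat1 had 453, 1974 and 781 and stood at 1.58 without DKO 4, and Mthfd2 had 234, 1046 and 481 and stood at 1.64 without DKO 4. Over the 6 fits with 1 library left out, 1 to 12 of the 18 genes were called, 1 without WT 1, 2 without WT 5 or DKO 5 and 12 without DKO 1, and Sesn2 was called in all 6. Eif4ebp1, a repressor of cap-dependent translation, was at 0.72 ± 0.17 SE and the lipoprotein receptor Vldlr at 0.74 ± 0.19 SE. Trib3, Chac1, Psat1 and Vldlr were each called in 2 of the 6 fits with 1 library left out, and Mthfd2 and Eif4ebp1 in 3. The groups of Trib3 overlapped, at 23.75, 41.1 and 34.0 normalized counts in the WT-labelled and 38.9, 141 and 158 in the DKO-labelled libraries. The mRNA of Atf4 itself, whose protein is controlled mainly at translation, did not pass (1728, 1961 and 2007 against 1811, 2609 and 2749 normalized counts, log2 fold change 0.33 ± 0.15 SE, adjusted p = 0.267 by DESeq2), and neither did Asns (1.02 ± 0.36 SE, adjusted p = 0.0976). DKO 1 was the lowest DKO-labelled library for all 7 higher genes, as it was for 6 of the 8 higher transporters and for 75.1% of all rows called higher.

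**Figure D5:**
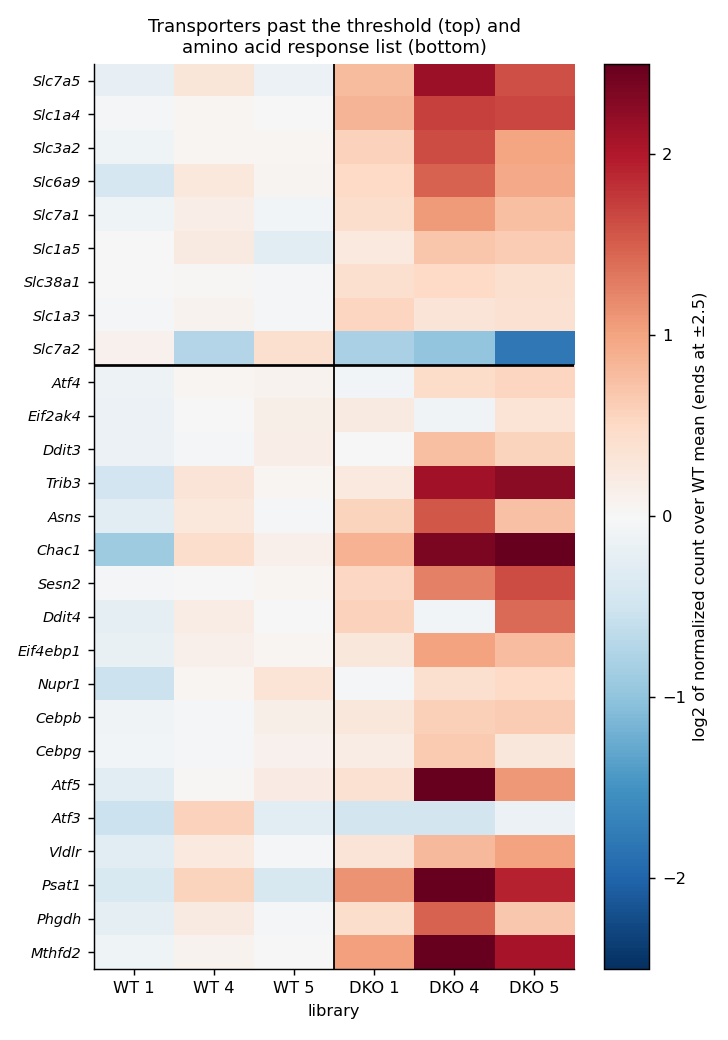
Log2 ratio of normalized counts to the mean of the 3 WT-labelled libraries (colour, ending at 2.5 in either direction) for the 9 called transporters above the line and the 18 genes of the amino acid response list below it, in each library. The red of DKO 4 and DKO 5 is deeper than that of DKO 1 in most rows, and Slc7a2 is blue in all 3 DKO-labelled libraries.

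Other carriers of amino acids or related solutes were counted from a list of 31 entries outside the families above, of which 24 could be tested. By DESeq2 1 was higher and 0 were lower (4.17%, near the 2.9% of all rows), with a median log2 fold change of 0.14. The groups did not overlap for 6 of the 24 higher and for 4 lower, against 9.85% and 10.5% of all rows, and 6 had an unadjusted edgeR p below 0.05, against 15% of rows. When 1 library was left out, 0 to 4 of them were called, all higher, the 4 without DKO 1. Whether these carriers differed from the members was not tested. The 1 higher gene was Slc17a9, which loads nucleotides into vesicles and is not known for amino acids (271, 303 and 249 against 352, 413 and 383 normalized counts, log2 fold change 0.48 ± 0.15 SE, adjusted p = 0.0448 by DESeq2). Of 28 genes tested by which amino acids are sensed at the lysosome for mTORC1, 0 passed an adjusted p of 0.05 by DESeq2, edgeR or limma-voom, where 2.9%, 0.0537% and 0.0376% of all rows did. An unadjusted p below 0.05 was given to 4, 6 and 5 of them, against 12.2%, 15% and 14% of rows, so these counts are near the background. Their median log2 fold change was 0.02, and the range was -0.54 to 0.34. The leucine sensor Sesn2 was not among the 28, because it was counted in the response list (1.21 ± 0.25 SE, adjusted p = 0.000440 by DESeq2). Its relatives Sesn1 (-0.31 ± 0.12 SE) and Sesn3 (-0.35 ± 0.16 SE) were among them.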

How the data were processed

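The libraries were made with an unstranded Illumina Nextera XT kit and sequenced on a HiSeq2500. What the authors deposited are raw read counts by gene symbol, once with all rows and once filtered to those where 1 library or more exceeded 5 counts. The submitters' processing notes name STAR 2.5.2a, DESeq2, edgeR and limma, and the builds GRCm38, mm10 and GRCh38, with no role for each. The counting tool and annotation were not given in the sources used here. Another deposited table, of filtered counts divided by 1 constant per library, was not used. No row lacked a gene name.

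Rows of the unfiltered table with at least 10 counts over the 6 libraries (18606) were tested in R 4.3.3 with DESeq2 1.42.0, the test the study's methods name: median-of-ratios size factors (0.867 to 1.12), two-sided Wald test, default filters (alpha 0.1) and Benjamini-Hochberg adjustment over all rows, with 0.05 as the threshold. The study also requires a 2-fold change, which was not required here; 5 of the 9 called members pass it. All 37 members entered the fit, and 34 received an adjusted p (not Slc1a1, Slc38a3 and Slc38a5, for low means). The alternatives were edgeR 4.0.16 (quasi-likelihood), limma-voom (limma 3.58.1), other scalings and filters, a replicate block and leaving out each library. The scripts were tested on simulated data with 200 changed genes. Libraries of a group differed by 16.8 to 43.4 in chi-square per degree of freedom, beyond sampling noise. Exon lengths and gene coordinates are those of GENCODE M21 (GRCm38), matched by symbol, and give no proof of the authors' gene models. Overlap on the opposite strand was measured there.

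Values for every library are given for each member past the threshold, the 6 members most abundant per kilobase, both heavy chains and light chains that could be counted. Members, lists and motifs were chosen with earlier results of these data known.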

Additional observations from a re-analysis of the deposited data

How the results depend on the processing

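Over all rows, 539 calls by DESeq2 became 10 by edgeR, 7 by limma-voom, 1469 with total counts as size factors, 343 with a replicate block, and 146 to 815 when 1 library was left out. Of the 37 members, 9 calls (8 higher, 1 lower) became 0 (0 and 0) by edgeR and by limma-voom. With total counts, 5 were higher and 2 lower, the median log2 fold change of the members turned from 0.21 to -0.033 and that of Slc38a2, the median member, from 0.21 to -0.033; all rows shifted by -0.23 there by construction. Leaving out 1 library gave 3 to 8 members called, 3 to 7 higher and 0 to 1 lower. Over the same fits Slc7a6 ranged from -0.20 to 0.035 (without WT 5) and Slc7a8 from -0.22 to 0.015 (without WT 4). TMM size factors, no count filter, 10 counts in 3 libraries, the filtered table, and no independent filtering kept each named member on its side of the threshold.

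Both groups carry the numbers 1, 4 and 5. Deviations of same-numbered libraries from their group means correlated at -0.13, -0.02 and -0.26 over 11489 rows, against -0.39 to 0.45 for other pairs. Deviations from a mean of 3 libraries are not free of each other, so whether same-numbered libraries share a litter or batch cannot be told. Among the 8 higher members, WT 4 and DKO 4 were each the highest of their group for 7. WT 1 was the lowest of its group for 5 and DKO 1 for 6. Among all rows called higher, WT 4 was the highest of its group in 74.3% and DKO 4 in 63%. WT 1 was the lowest in 55.1% of them and DKO 1 in 75.1%, so this order is not particular to the members. With the replicate block 7 members were called, 7 higher and 0 lower, without Slc1a3 and Slc7a2. There the DESeq2 adjusted p fell for Slc7a5 (0.00479 to 8.21e-17), Slc3a2 (8.78e-06 to 4.96e-08), Slc6a9, Slc7a1 and Slc1a5. It rose for Slc1a4 and Slc38a1 (0.000369 to 0.0229 for the latter). The block takes further coefficients from the same 6 libraries, which leaves fewer degrees of freedom to measure spread. Whether the numbers are a real block cannot be told, so a smaller p-value there is no stronger evidence. With 3 libraries per group, differences of the size of that of Slc38a2 (0.21 ± 0.11 SE) did not pass.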
